A study of Mus musculus with 14 samples.

Results

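CDP and Duplike are the names of 2 control classes in a single-cell DNA study of B16F10 melanoma in mice. The cells were taken by their class in the deposited cell table, which gave 18 CDP cells and 24 Duplike cells out of 648 cells in 14 samples. Each class is 1 sample with a batch name of its own, so class and batch cannot be told apart, cells are not replicates of a condition, and all comparisons are descriptions of these libraries without a test. The abbreviations are not spelled out in the labels, which also do not say how the cells of either class were made or sorted.

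The series asks, by its title, about the genomic identity of circulating cells that may be hybrids of a tumor cell and a leukocyte. Single cells were sorted from blood, lung and culture, and their DNA was amplified by MALBAC. CDP, Duplike and a further control class named PltLike (24 cells) are all labelled as naive female C57BL/6J mice of 6 to 8 weeks, as are the naive white blood cells (WBC, 21 cells). The reference for the tumor genome is the B16F10 culture (22 cells), an adherent culture labelled with the genotype B16F10 and no age or sex; its cells carry the class name CTC (circulating tumor cell) in the labels and a culture control name in the cell table. A further tumor reference is the 43 circulating tumor cells sorted in 5 samples of tumor-injected female C57BL/6J mice of the same age, labelled with the treatment Tumor. How many animals or cultures gave the cells of each class is not stated.

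B16F10 is a melanoma line derived from C57BL/6 mice, and like most tumor lines it carries gains and losses of whole chromosomes and of chromosome parts. MALBAC copies the genome of 1 cell in looping cycles that keep the amplification close to linear, which makes coverage along the genome usable as a measure of relative copy number. A relative profile shows which regions hold more or fewer copies than the rest of the same genome, and it does not by itself show how many copies a cell holds in all.

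The first readout was the level of each cell, defined as the autosomal median of the deposited coverage, in the units of the deposited table. The levels of naive WBC lay between 1.71 and 1.91 and those of the culture between 3.63 and 3.77. All 18 CDP cells lay in 1 narrow band, with a lowest level of 5.48, a median of 5.57 and a highest of 5.61 (mean 5.56 ± 0.039 SD over cells). That is 100% of the CDP cells near 5.6, with an exact Clopper-Pearson 95% interval from 81.5% to 100% that covers counting error only. No CDP cell stood near 3.7, and 0 of 18 cells allows a share of up to 16.7% by the rule of 3 counts and of 18.5% by the exact interval.

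Duplike cells were spread over 3 bands. Of the 24 cells, 9 stood near 3.7 (37.5%, interval 18.8% to 59.4%), from 3.48 to 3.66 with a median of 3.58. Another 14 stood near 5.6 (58.3%, interval 36.6% to 77.9%), from 5.27 to 5.52 with a median of 5.47. The remaining cell, Duplike cell 8, stood at 7.61 (4.17%, interval 0.105% to 21.1%). The lower Duplike band overlapped the culture and PltLike, whose 24 cells lay between 3.45 and 3.7. The middle band overlapped CDP in part, since 9 of its 14 cells lay below the lowest CDP cell and none lay above the highest. Because the Duplike sample holds several bands, the Duplike cells near 3.7 and near 5.6 are also described apart below, a split chosen after the levels were seen.

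The middle band lies close to the sum of the 2 reference levels. The mean culture level of 3.69 and the mean naive WBC level of 1.82 add up to 5.52, and the culture makes up 0.670 of that sum. The culture with a doubled naive WBC level gives 7.34, with a culture part of 0.504, while the culture level doubled gives 7.39. The mean CDP level was 5.56 and the mean of the Duplike cells near 5.6 was 5.44 ± 0.072. Across the classes the levels form a ladder. Bands were set by rounding each level over the naive WBC median of 1.81. Naive WBC gave 1, the culture 2, and CDP and the middle Duplike band 3. On such a ladder any level in band 3 lies near the sum of bands 1 and 2. This closeness alone therefore does not tell the makeup of a cell. How the authors set the level of a cell is not given in the sources used here, so the levels are described as deposited and are not read as DNA content.

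The second readout was the B16F10 fraction, which places the relative profile of a cell on a line from the mean naive WBC profile (0) to the mean culture profile (1) by least squares over 4120 autosomal bins. It uses the profile after division by the cell's own level, but both readouts come from the same coverage values. The CDP fractions had a lowest value of 0.511, a median of 0.696 and a highest of 0.760 (mean 0.684 ± 0.062 SD over 18 cells). All 18 CDP cells lay below the lowest culture cell (0.810) and above the highest naive WBC (0.048). The CDP cells were thus a compact intermediate group, and 17 of 18 lay within 0.1 of the 0.670 that the sum of the 2 reference levels holds.

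The Duplike fractions ran from 0.388 to 0.979 with a median of 0.730 (mean 0.739 ± 0.178 SD over 24 cells). In Duplike, 15 of 24 cells lay below every culture cell and all 24 lay above every naive WBC. By level, the 9 cells near 3.7 ran from 0.762 to 0.979 (mean 0.918 ± 0.067), and the 14 cells near 5.6 ran from 0.388 to 0.816 (mean 0.645 ± 0.124). The ranges of the bands overlapped between cell 11 (0.762) and cell 18 (0.816). PltLike, at the level of the culture, had a mean fraction of 0.898 ± 0.087, close to the Duplike cells near 3.7. Of the Duplike cells near 5.6, 10 of 14 lay within 0.1 of 0.670, and Duplike cells 13 and 14 lay lowest at 0.413 and 0.388. Duplike cell 8, at the highest level, had a fraction of 0.454.

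The labels describe both classes as naive C57BL/6J, and the profiles go against that label taken alone, since all 18 CDP cells and all 24 Duplike cells stood above every naive WBC in B16F10 fraction. The order of CDP and the Duplike cells near 5.6 depends on the tumor reference. With the culture as reference the means were 0.684 and 0.645. With the circulating tumor cells of the injected mice they were 0.643 and 0.672, and with PltLike they were 0.575 and 0.721. The fraction also depends on the ceiling of the table, because values of most cells stop at exactly 10 and bins that often reach it were left out. With those bins kept, the mean fraction was 1.21 in CDP and 1.09 in Duplike, so that CDP lay above Duplike.

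**Figure D1:**
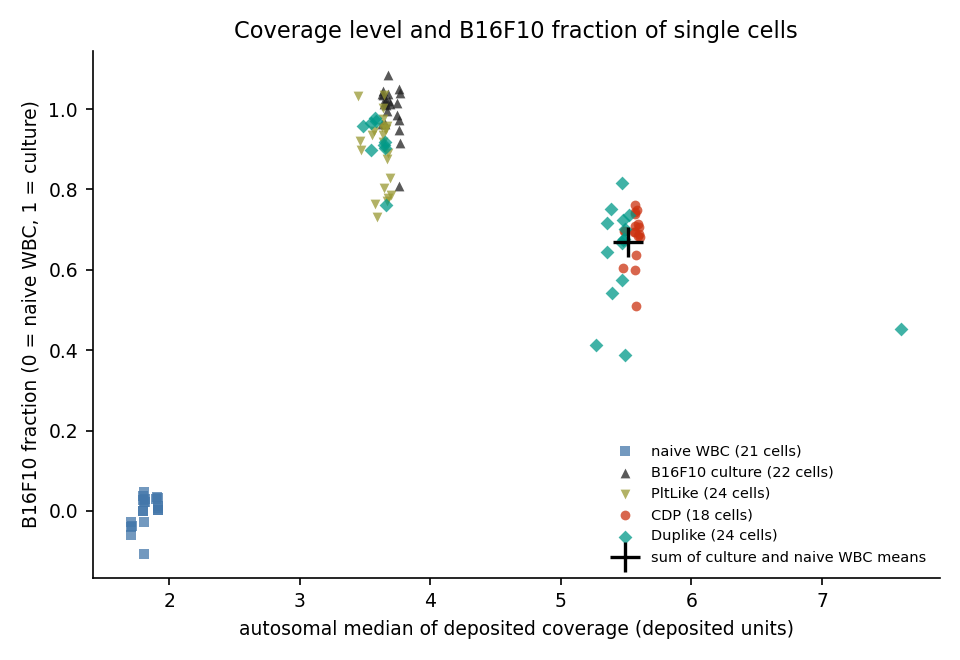
Level of each cell (x axis, autosomal median of the deposited coverage in deposited units) against its B16F10 fraction (y axis, 0 for the naive WBC mean and 1 for the culture mean), 1 point per cell, with a black cross at the sum of the mean culture and naive WBC levels (5.52, culture share 0.670). The 18 CDP cells gather around the cross, while Duplike cells lie with culture and PltLike near 3.7 (9 cells), near the level of the cross with fractions from 0.388 to 0.816 (14 cells) and alone at 7.61 (1 cell).

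The relative profile by chromosome was compared as the log2 difference from the naive WBC mean, with each cell centred on its own autosomal median. The culture differed from naive WBC by at least 0.15 on chromosomes 1, 3, 6, 11, 14, 18 and X. On these chromosomes the CDP means had the sign of the culture at a smaller size throughout. Chromosome 6, the strongest gain of the culture (0.55), ranged in CDP from 0.30 to 0.51 with a median of 0.43 (mean 0.42 ± 0.05). In the Duplike cells near 5.6 it ranged from 0.12 to 0.56 with a median of 0.41 (mean 0.37 ± 0.12), and in those near 3.7 from 0.43 to 0.65 with a median of 0.58 (mean 0.57 ± 0.06). All 18 CDP and all 24 Duplike cells were above 0 there. The size on chromosome 6 depends on the ceiling: when the filter took bins that reach or pass 10, instead of those at exactly 10, in no less than 1% of cells, it was 0.17 in CDP and 0.13 in Duplike.

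Chromosome 14, low in the culture at -0.39, ranged in CDP from -0.55 to -0.17 with a median of -0.24. In the Duplike cells near 5.6 it ranged from -0.69 to -0.14 with a median of -0.27, and in those near 3.7 from -0.85 to -0.29 with a median of -0.36. None of the 42 cells was above 0 on this chromosome. Chromosome 18, at -0.37 in the culture, had means of -0.23 ± 0.10 in CDP, -0.22 ± 0.08 in the Duplike cells near 5.6 and -0.26 ± 0.12 in those near 3.7, with 1 CDP cell and 2 Duplike cells above 0. The smaller gains of chromosome 1 (culture 0.16), chromosome 3 (0.19) and chromosome 11 (0.17) had means of 0.13, 0.12 and 0.09 in CDP and of 0.14, 0.09 and 0.11 in the Duplike cells near 5.6. Duplike cell 8, alone at its level, stood at -0.069 on chromosome 11. On chromosome 3 the spread over CDP cells (SD 0.10) was nearly as large as the mean, and 15 of 18 CDP cells were above 0. The culture cells themselves ranged there from -0.10 to 0.32 with a median of 0.27 (SD 0.15). The ranges of CDP and Duplike overlapped on each of the autosomes named here.

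**Figure D2:**
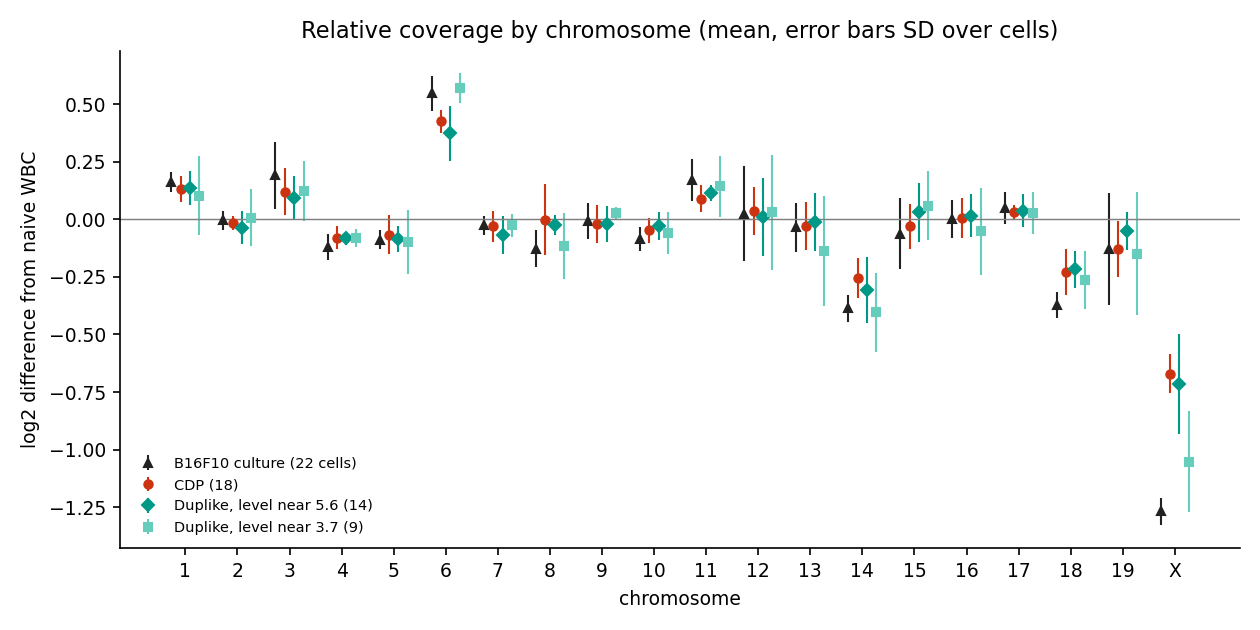
Log2 difference from naive WBC (y axis) for each autosome and X (x axis), as the mean over cells with error bars of 1 SD, for the culture (22 cells), CDP (18), Duplike near 5.6 (14) and Duplike near 3.7 (9). On chromosome 6 CDP (0.42) and Duplike near 5.6 (0.37) lie below the culture (0.55) and Duplike near 3.7 (0.57), and on X they lie at -0.67 and -0.72 against -1.27 in the culture.

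In deposited units the CDP profile stood close to the bin-by-bin sum of the culture mean and the WBC mean. Both the profile and the level of a cell enter these values, and the CDP level lies near that sum on the ladder described above. Over 19 autosomes the mean CDP value differed from that sum by 0.0750 units on average, without regard to sign. On chromosome 6 the sum was 7.36 and CDP had 7.58 ± 0.274. The farthest autosome was chromosome 8, 0.351 above the sum. CDP cell 3 alone stood at 8.74 there, and without it the CDP mean was 5.50 ± 0.206, which is 0.172 above the sum. The Duplike cells near 5.6 differed from the sum by 0.136 units on average, from 0.346 below on chromosome 3 to 0.127 above on chromosome 15. On chromosome 6 they had 7.13 ± 0.622.

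The same pattern held at the scale of chromosome parts. A running median over the culture profile gave 27 autosomal runs of at least 10 bins with a log2 difference of at least 0.3, of which 9 were gained and 18 lost. The mean of CDP had the culture's sign in 27 of 27 runs, as did the Duplike cells near 5.6 and those near 3.7. The median ratio to the culture was 0.659 in CDP (0.370 to 0.793), 0.624 in Duplike near 5.6 (0.281 to 0.906) and 0.851 in Duplike near 3.7 (0.553 to 1.22). The gain at chromosome 1:25999078-64163925 (mm10) was 0.55 in the culture, 0.43 ± 0.08 in CDP, 0.40 ± 0.08 in Duplike near 5.6 and 0.47 ± 0.15 in Duplike near 3.7. All 18 CDP and 24 Duplike cells had the sign of the culture there. The loss at chromosome 10:103559453-130694993, at -0.41 in the culture, was -0.26 ± 0.05 in CDP, -0.20 ± 0.12 in Duplike near 5.6 and -0.24 ± 0.04 in Duplike near 3.7. In this run the Duplike cells near 3.7, with a fraction near that of the culture, stood at 0.596 of the culture value. On the loss at chromosome 14:1-52353918 (-0.44 in the culture) the ratio was 0.646 in CDP, 0.906 in Duplike near 5.6 and 1.22 in Duplike near 3.7.

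Over single bins, 341 of 4376 bins (7.79%) were higher in CDP than in naive WBC by at least 0.3 on the log2 scale, and 388 (8.87%) were lower. In Duplike 377 bins (8.62%) were higher and 599 (13.7%) lower. The Duplike cells near 5.6 had 333 bins higher (7.61%) and 542 lower (12.4%), and those near 3.7 had 480 higher (11%) and 768 lower (17.6%), against 502 (11.5%) and 945 (21.6%) in the culture. Of the CDP bins, 230 of the 341 higher ones lay on chromosome 6, 63 on chromosome 1 and 30 on chromosome 3, and 246 of the 388 lower ones lay on X and 67 on chromosome 14. Duplike near 5.6 had 108 lower bins on chromosome 14, 36 on chromosome 4 and 35 on chromosome 18, where CDP had 67, 18 and 12. Between the classes, 139 bins (3.18%) were higher in CDP than in Duplike and 37 (0.846%) lower. Of the 139, 50 lay on X. Against the Duplike cells near 5.6 alone, 87 bins were higher in CDP (1.99%) and 38 lower (0.868%), and 14 of the 87 lay on X.

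X was the chromosome that differed most from naive WBC. The naive WBC are labelled female and the culture has no sex label. In the mean over all of X, a sex difference therefore cannot be told apart from a change in the tumor, and the Y bins were not used. X was at -1.27 in the culture, and in CDP it ranged from -0.75 to -0.46 with a median of -0.68 (mean -0.67 ± 0.09). In Duplike near 5.6 it ranged from -1.09 to -0.39 with a median of -0.65, and in Duplike near 3.7 from -1.21 to -0.48 with a median of -1.12. The culture profile changed level within X, so X was described in parts on either side of position 109216700, a boundary set from the culture values. On the proximal part (X:1-109216700) the deposited means were 1.8 in naive WBC, 1.88 in the culture and 3.87 ± 0.199 in CDP. On the distal part (X:109216701-171031299) they were 1.85, 0.967 and 2.95 ± 0.236. The relative CDP values were -0.51 ± 0.07 proximally and -0.92 ± 0.11 distally, where the culture had -0.92 and -1.83. Duplike near 5.6 had -0.56 ± 0.19 and -0.96 ± 0.26.

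A B16F10 fraction was computed from the 256 X bins alone, which the autosomal fraction does not use. It was 0.641 ± 0.064 in CDP (0.483 to 0.704), 0.654 ± 0.145 in Duplike near 5.6 (0.412 to 0.886) and 0.876 ± 0.142 in Duplike near 3.7 (0.50 to 0.960). Across the 18 CDP cells the autosomal and X fractions had a Pearson r of 0.631 and a Spearman rho of 0.639, and across the 24 Duplike cells 0.757 and 0.788. CDP cell 16 was the lowest of the 18 in both fractions (0.511 and 0.483), and its part in the CDP values was not tested. The 2 fractions of a cell share its library and its amplification. The 14 Duplike cells near 5.6 alone gave an r of 0.736, and the 9 near 3.7 gave 0.0897, so the pooled Duplike value also holds the distance between the bands.

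Single cells left the diagonal on X. Duplike cells 9, 23 and 24, at levels of 5.35, 5.36 and 5.39, had X fractions of 0.874, 0.848 and 0.886 beside autosomal fractions of 0.645, 0.716 and 0.751. On the proximal part of X they stood at 2.84, 2.99 and 2.89 deposited units, where the mean of the 14 Duplike cells near 5.6 was 3.73 ± 0.506 and that of CDP 3.87. Duplike cell 22, at 3.65, went the other way with an X fraction of 0.50 beside an autosomal one of 0.911, and stood at 3.04 units on proximal X where the mean of its band was 2.10 ± 0.359. Duplike cell 8 had an X fraction of 0.608 beside 0.454, and Duplike cell 11 had 0.903 beside 0.762. CDP cell 18 had an X fraction of 0.492 beside 0.698. The other 17 CDP cells kept both fractions closer together than these cells did.

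**Figure D3:**
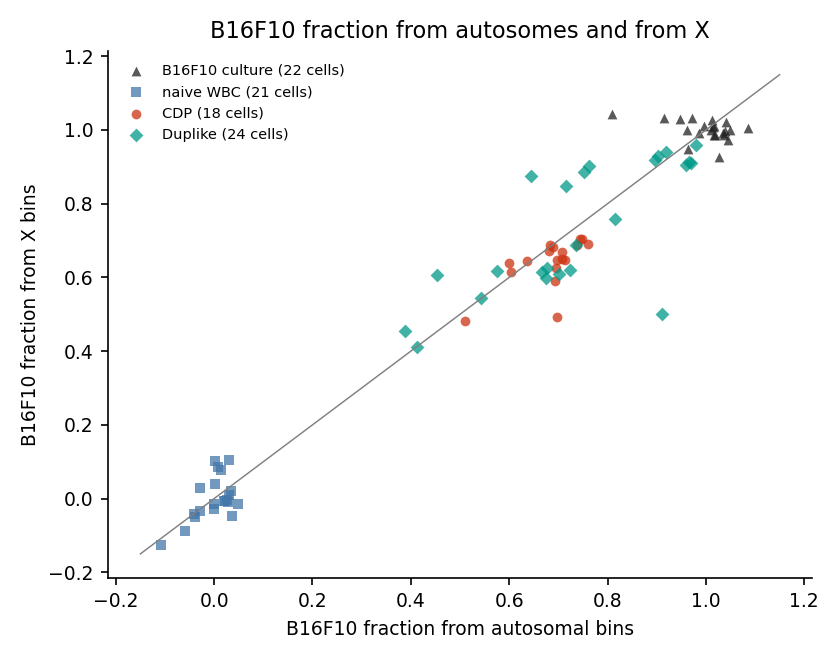
B16F10 fraction from autosomal bins (x axis) against the fraction from X bins (y axis), 1 point per cell for naive WBC, culture, CDP and Duplike, with a line where both are equal. CDP cells gather between 0.511 and 0.760 on the x axis, Duplike cell 22 lies far below the line (0.911 and 0.50), and Duplike cells 8, 9, 11, 23 and 24 lie above it.

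At 2 loci the references differ far more than on whole chromosomes, and both were chosen with their values known. The bin at chromosome 14:52958219-53528636 holds 58 annotated Trav genes, the variable segments of the alpha chain of the T cell receptor. As a ratio to the cell's autosomal median, naive WBC stood at 0.00270 and the culture at 0.440. CDP ranged from 0.204 to 0.405 with a median of 0.309, and all 18 cells lay above every naive WBC, with 16 below every culture cell. Duplike near 5.6 ranged from 0.146 to 0.442 with a median of 0.290, and Duplike near 3.7 from 0.222 to 0.571 with a median of 0.417. The neighbouring bins did not show this gap: the next bin distally was at 0.75 in naive WBC, 0.758 in the culture and 0.740 in CDP. Why naive WBC were so low in this single bin was not tested.

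The bin at X:87239364-87785367 overlaps Il1rapl1, a very large gene for a synaptic receptor-like protein. Here naive WBC stood at 0.993 and the culture at 0.102. CDP ranged from 0.344 to 0.696 with a median of 0.484, so all 18 cells lay between the references without touching either. Duplike near 5.6 ranged from 0.395 to 0.766 with a median of 0.661, and 13 of 14 cells lay below every naive WBC. Duplike near 3.7 ranged from 0.142 to 0.382 with a median of 0.184, overlapping the culture (0.0643 to 0.153) in 2 of 9 cells. PltLike stood at 0.228 ± 0.069, above the culture in 21 of 24 cells.

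The gene lists cover 13 genes of the melanocyte lineage, 12 of growth signalling and 12 of the cell cycle and tumor suppression, all 37 in bins that were kept. A gene has the value of the bin over its midpoint, so it stands for its region and says nothing of expression. In CDP 1 melanocyte gene was higher than in naive WBC by at least 0.3 and 1 was lower, with a list median of -0.06 beside -0.01 over all bins. Of the growth signalling genes 3 were higher and none lower in CDP (median -0.02), and in Duplike 4 were higher and none lower (median 0.08, beside -0.02 over all bins). Over all bins the shares at this limit were 7.79% higher and 8.87% lower in CDP and 8.62% and 13.7% in Duplike, so counts of 1 in lists of 13 or 12 genes lie near the background. In the list of cell cycle genes and tumor suppressors none was higher in either class, and 1 was lower in each (medians -0.12 in CDP and -0.08 in Duplike).

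Among the genes with the highest culture values, Mitf, the master transcription factor of melanocytes (chromosome 6:97807002-98021360), was at 0.62 in the culture. CDP ranged from 0.30 to 0.76 with a median of 0.45, and Duplike from 0.26 to 1.43 with a median of 0.76. All 18 CDP and all 24 Duplike cells lay above every naive WBC, and the CDP and Duplike ranges overlapped. Met, the receptor for hepatocyte growth factor (chromosome 6:17463349-17573980), was at 0.57 in the culture, 0.48 ± 0.15 in CDP and 0.74 ± 0.19 in Duplike. Braf, a kinase between Ras and the MAP kinases (chromosome 6:39603231-39725658), was at 0.57, 0.42 ± 0.10 and 0.55 ± 0.20. Akt1, a kinase of survival signalling on chromosome 12:112653821-112674884, was at 0.45 in the culture, 0.27 ± 0.13 in CDP and 0.38 ± 0.26 in Duplike.

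Among the lowest genes, Dct, an enzyme of melanin synthesis on chromosome 14:118012790-118052246, was at -0.77 in the culture. CDP ranged from -0.74 to -0.29 with a median of -0.52, and Duplike from -0.96 to -0.08 with a median of -0.59. All 18 CDP cells and 22 of 24 Duplike cells lay below every naive WBC. Mdm2, which restrains p53 (chromosome 10:117688875-117710758), was at -0.46 in the culture, -0.25 ± 0.11 in CDP and -0.28 ± 0.17 in Duplike. Ednrb, an endothelin receptor needed for melanocyte development (chromosome 14:103814615-103844508), was at -0.44, -0.24 ± 0.11 and -0.22 ± 0.26. Arid1a, a subunit of a chromatin remodelling complex (chromosome 4:133679008-133756769), was at -0.44, -0.31 ± 0.15 and -0.30 ± 0.20. Apc, a brake on Wnt signalling on chromosome 18:34220297-34322190, was at -0.43, -0.30 ± 0.17 and -0.27 ± 0.18.

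The genes that differed most between CDP and Duplike were all lower in CDP. Sox10, a transcription factor of neural crest cells and melanocytes (chromosome 15:79154913-79164490), ranged in CDP from -0.47 to 0.23 with a median of -0.05 and in Duplike from -0.05 to 0.69 with a median of 0.27, a difference of -0.32 between the means. The ranges overlapped, and 14 of 24 Duplike cells but no CDP cell lay above every naive WBC. Cdk4, a kinase that drives entry into S phase (chromosome 10:127063535-127067288), ranged from -0.46 to -0.15 in CDP (median -0.27) and from -0.33 to 0.30 in Duplike (median 0.04), a difference of -0.30. Pmel, which forms the fibrils of melanosomes and lies on the same chromosome at 128695888-128720238, was at -0.29 ± 0.13 in CDP and -0.0020 ± 0.18 in Duplike. Both lie in the chromosome 10 loss of the culture, where the culture itself had -0.43 at Cdk4 and -0.41 at Pmel. Mlana, a melanosome protein (chromosome 19:29697541-29708447), was at -0.09 ± 0.25 and 0.19 ± 0.24, and Akt2 (chromosome 7:27591552-27640826), a kinase of insulin signalling, at -0.15 ± 0.11 and 0.14 ± 0.19.

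The lists differed in this direction. The Duplike mean lay above the CDP mean at 11 of 13 melanocyte genes, at 11 of 12 growth signalling genes and at 6 of 12 genes of the cell cycle and tumor suppression. Pooled, the Duplike mean lay above the CDP mean at 28 of 37 genes (75.7%), beside 46.9% of all 4376 bins, and by at least 0.2 at 10 of 37 genes (27.0%), beside 5.19% of all bins. PltLike stood above the culture at all 10 of those genes and at 28 of all 37. The share of all bins for this count was not computed, and the 10 genes were taken for their high Duplike values. Duplike and PltLike also went together over all autosomal bins, as described below for the residual profiles. The count is therefore not read as a result about these genes. The 10 genes were 6 melanocyte genes, 2 of growth signalling and 2 of the cell cycle and tumor suppressors. Of the 37 genes 1, Ccnd1, was higher in CDP than in Duplike by at least 0.2. The share over all bins is no matched background, since 792 autosomal bins hold no gene while each listed gene lies in a bin with one. After subtraction of each cell's fitted mixture, the Duplike mean was -0.0016 in those bins and 0.039 in 142 bins with 20 or more genes. The CDP mean was 0.010 and -0.012. PltLike had -0.0094 and 0.038, and the circulating tumor cells had -0.0034 and 0.041, so the rise was not particular to Duplike. This comparison and its limit were chosen after the values were seen, and the part of gene density, amplification or batch in it was not tested.

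The bins that differed most between the classes lay outside the autosomal runs of the culture or on X, and at each of the 5 bins lowest in CDP PltLike stood with Duplike. The bin at chromosome 16:58259710-58828698, which holds the claudin domain gene Cldnd1 and 9 other protein-coding genes, was at -0.0049 ± 0.11 in CDP and 0.52 ± 0.17 in Duplike, with -0.01 in the culture and 0.67 in PltLike. The gene-rich bin at chromosome 7:45312506-45829654, with 38 protein-coding genes including the apoptosis gene Bax, was at -0.12 ± 0.14 and 0.40 ± 0.16, with 0.35 in PltLike. The bins highest in CDP hold members of multigene families. The bin at chromosome 7:31610900-32169479 (6 secretoglobin genes) was at 0.08 ± 0.12 in CDP and -0.55 ± 0.22 in Duplike, with -0.52 in PltLike, and its neighbour at 32169480-32754735 was at -0.03 ± 0.14 and -0.63 ± 0.22. The bin at X:31687114-32515312, which holds Btbd35f genes, was at -0.49 ± 0.13 in CDP, -1.14 ± 0.35 in Duplike and -1.44 in PltLike. Reads in such repeated families can map to several copies, so these values are uncertain.

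Residual profiles were compared over all autosomal bins. After subtraction of each cell's fitted mixture of culture and naive WBC, the mean residual profile of Duplike had a Pearson r of 0.868 with that of PltLike over 4120 bins, and that of CDP had 0.126 with Duplike and 0.0533 with PltLike. The circulating tumor cells of the injected mice had 0.583 with Duplike, 0.635 with PltLike and 0.176 with CDP. These are correlations over bins, and all of these residual profiles share the culture and naive WBC references. The Duplike cells near 5.6 and near 3.7 had 0.826 and 0.816 with PltLike. The SD of the mean residual over bins was 0.0363 in CDP, 0.0894 in Duplike and 0.101 in PltLike. Between single cells, the median correlation of residuals was 0.231 over 576 pairs of a Duplike and a PltLike cell, 0.241 over 276 pairs of Duplike cells and 0.00831 over 432 pairs of a CDP and a Duplike cell. No pair among the 42 cells held identical values, and the highest correlation of the coverage of any pair was 0.893.

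Evenness, the fourth readout, is the median absolute log2 difference between neighbouring autosomal bins, where a lower value is a smoother profile. CDP ranged from 0.15 to 0.18 with a median of 0.16 (mean 0.16 ± 0.01), and Duplike from 0.17 to 0.23 with a median of 0.19 (mean 0.20 ± 0.02). Of the 24 Duplike cells 19 lay above the highest CDP cell, and 5 overlapped CDP. The culture and naive WBC both had a mean of 0.17, and 14 of 24 Duplike cells but no CDP cell lay above the highest culture cell. PltLike stood at 0.21 ± 0.02. The Duplike cells near 5.6, at the level of CDP, had 0.19 ± 0.01, and 11 of 14 lay above the highest CDP cell. The coverage table gives no read counts, so the depth is unknown and its part in evenness was not tested.

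**Figure D4:**
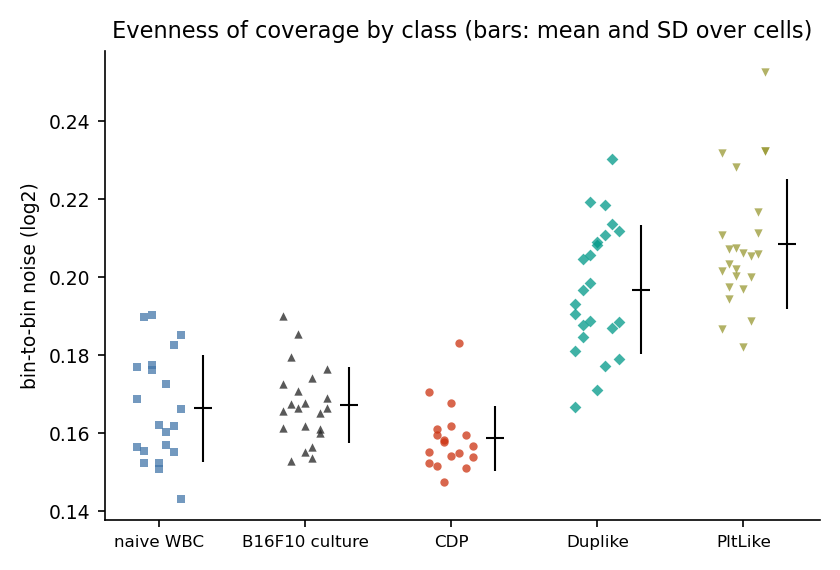
Evenness of each cell (y axis, median absolute log2 difference of neighbouring autosomal bins, axis starting above 0) by class (x axis), 1 point per cell, spread sideways for sight, with bars of the mean and 1 SD over cells. CDP (mean 0.16) lies with naive WBC and the culture (both 0.17), and 19 of 24 Duplike cells lie above every CDP cell, in the range of PltLike (mean 0.21).

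Whole chromosomes of single cells were set against the mixture fitted to the same cell. A chromosome was counted when its median lay at least 0.25 (log2) above or below the fit, a limit chosen after the values were seen. In CDP 9 of 360 chromosomes were counted (2.5%), in 6 of 18 cells. In Duplike the count was 38 of 480 (7.92%), in 17 of 24 cells. Duplike near 5.6 had 12 of 280 (4.29%) and Duplike near 3.7 had 26 of 180 (14.4%), beside 18 of 440 (4.09%) in the culture, 33 of 480 (6.88%) in PltLike and 0 of 420 in naive WBC. The naive WBC and culture profiles are themselves the ends of the fitted line. The same step in deposited units is larger on the log2 scale at a lower level. Chromosome 13 of Duplike cell 3 stood at 2.85 units against a fit of 3.68 (-0.35). Chromosome 12 of CDP cell 7 stood at 4.69 against 5.62 (-0.26). Counts at a fixed log2 limit are thus not like for like between levels.

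The largest value in CDP was chromosome 8 of CDP cell 3, 0.68 above the fit, with 8.74 deposited units where the fit gave 5.38. CDP cell 18 was low on chromosome 19 (-0.54) and chromosome 16 (-0.31) and high on X (0.30). CDP cell 11 was high on chromosome 18 (0.40) and low on chromosome 14 (-0.30). At this limit no chromosome was counted in more than 1 CDP cell. At a limit of 0.2, 5 chromosomes were counted in 2 or more CDP cells, with chromosome 13 in 3 cells. Against these stood 14 chromosomes in Duplike, 12 in PltLike and 6 in the culture.

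In Duplike 9 chromosomes were counted in 2 or more cells at 0.25. Chromosome 13 was counted in 6 cells (5 lower, 1 higher), chromosome 12 in 5 (3 lower, 2 higher), chromosome 15 in 4 (all higher, 0.27 to 0.34) and chromosome 16 in 4 (all lower, -0.35 to -0.28). X was counted in 4 cells (3 lower, 1 higher) and chromosome 14 in 3 (all lower). In PltLike 9 chromosomes were also counted in 2 or more cells, with chromosome 13 in 10 of 24 cells (9 lower, 1 higher). Chromosomes 15 and 16 were counted in 3 PltLike cells each. In the culture 4 chromosomes were counted in 2 or more cells. These were chromosome 3 in 4 of 22 cells and chromosomes 12, 15 and 19 in 3 each. The fit uses the mean over these same culture cells. Duplike cell 6, near 3.7, had 7 such chromosomes, with chromosome 19 lowest at -0.85 (1.83 deposited units against a fit of 3.26) and chromosome 12 highest at 0.49. Without it the count was 31 of 460 in Duplike (6.74%) and 19 of 160 near 3.7 (11.9%). Duplike cell 6 also had the highest evenness value of the class, 0.23. The highest value against the fit in Duplike was X of cell 22, at 0.67.

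**Figure D5:**
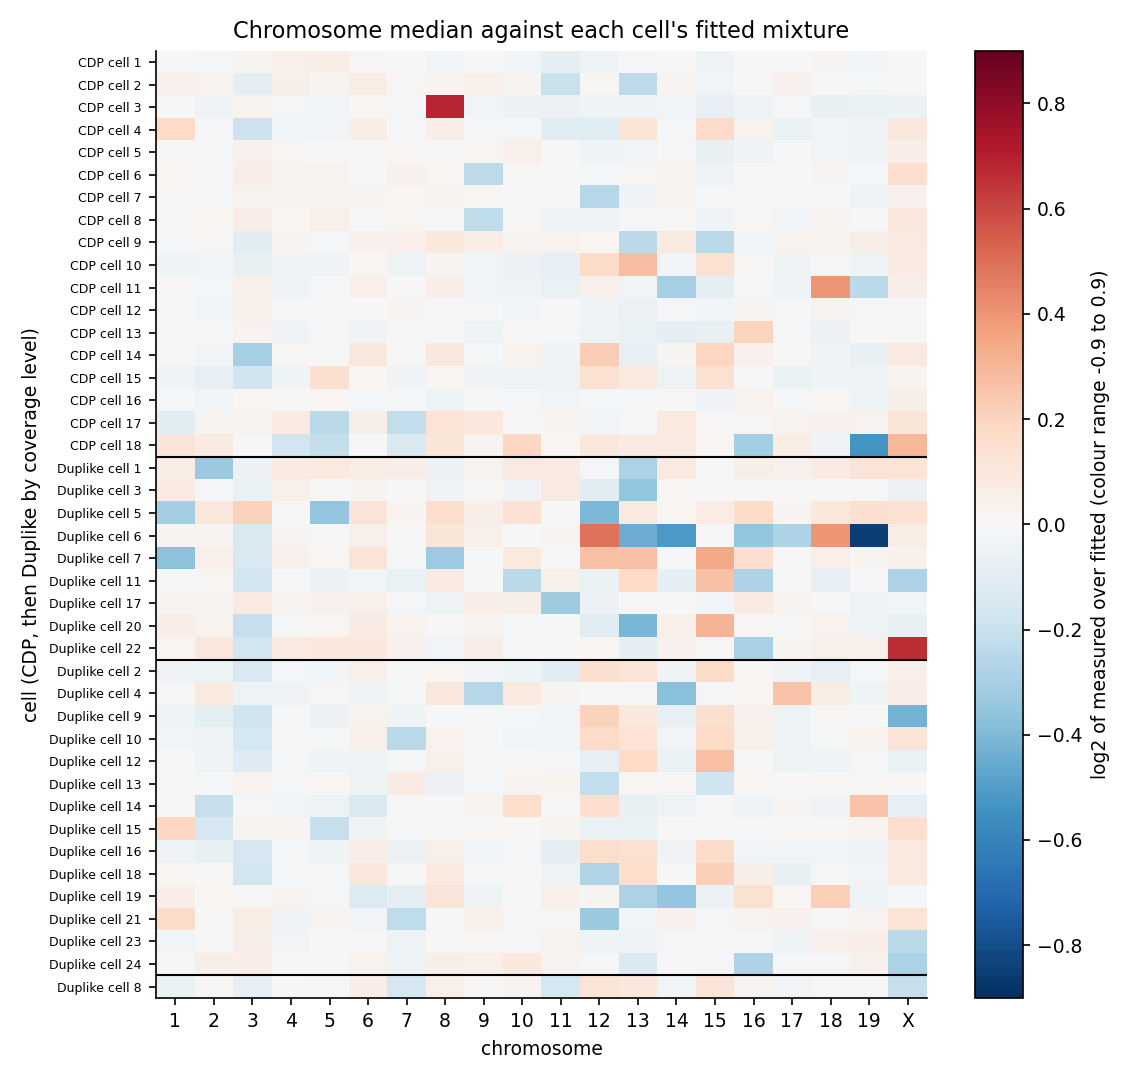
Log2 ratio of the measured to the fitted median (colour, from -0.9 to 0.9) for each chromosome (x axis) in each CDP and Duplike cell (y axis, with black lines between CDP, Duplike near 3.7, Duplike near 5.6 and Duplike cell 8). CDP shows 9 of 360 fields at or past 0.25, the strongest on chromosome 8 of cell 3 (0.68), and Duplike shows 38 of 480, of which 7 are in cell 6.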

How the data were processed

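Single-cell MALBAC DNA libraries were analysed from the deposited coverage table, whose values are a normalised signal per bin and cell made by the authors (4880 bins, median width 538 kb, 648 cells). How the bins, levels and ceiling of 10 were set is not given in the sources used here. Per the submitters' processing notes the build was mm10 and the tools were BWA, SAMtools, Picard and Trim Galore, with HISAT2 and featureCounts also listed. Classes came from the deposited cell table and groups from the labels.

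Bins whose value was exactly 10 in 1% of cells or more were dropped, which kept 4120 autosomal and 256 X bins. A pseudocount of 0.1 was added, log2 taken and the result centred on the cell's autosomal median, and 166 Y bins were not used. The B16F10 fraction was fitted by least squares on values divided by that median. With 1 sample a side no test was run. Intervals are exact Clopper-Pearson at 95%. Scripts ran in Python 3.11.15 with scipy 1.17.1, pandas 2.3.3, numpy 2.4.6 and matplotlib 3.10.9, and the fraction was tested on simulated mixtures.

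The members, gene lists and loci were chosen with earlier results of these data known. Named genes are the 5 per direction with the largest culture minus naive WBC difference among 37 listed genes and the 5 with the largest CDP minus Duplike difference, and named bins are the 5 per direction of the latter. A gene that this rule would name is not reported here. Ccnd1, Bax and Cldnd1 were named after their values were seen, as were single cells. Gene positions come from the RefSeq table of GRCm38.p6. The ceiling filter, the split of Duplike by level, the X boundary, the residual correlations and the limit for whole chromosomes were chosen after the values were seen.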

Additional observations from a re-analysis of the deposited data

How the results depend on the processing

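Of 193 alternative values, 154 moved by less than the spread over cells (for counts, by less than 1.5 times), 34 moved further and 5 changed sign, and where no value shows the cause it was not tested. For Duplike this spread spans the level bands (SD 1.08 for the level and 0.178 for the fraction). A large move can thus fall within it, and the 154 are no measure of stability. With bins at the ceiling kept, the fraction was 1.21 in CDP and 1.09 in Duplike, the difference of Duplike minus CDP turned from 0.0556 to -0.121, the CDP level was 5.65 and chromosome 6 of CDP was 0.35. With bins at or above the ceiling left out, chosen after seeing the data, chromosome 6 was 0.17 in CDP and 0.13 in Duplike and the CDP fraction 0.615. With PltLike as reference the CDP fraction was 0.575 and the difference 0.234. With the Duplike cells taken by level, near 3.7 the level was 3.59, its difference from CDP -1.97, the fraction 0.918 and its difference 0.234. Near 5.6 the difference in fraction was -0.0389. The level difference from CDP there went from -0.728 to -0.127, a move that is counted among the 154. For the single cell at the highest level, the level was 7.61 and its difference turned from negative to 2.04, the fraction was 0.454 and its difference -0.230, chromosome 11 was -0.069, chromosome 14 was -0.18, and evenness was 0.17 with a difference of 0.0080. As a mean over bins the CDP level was 5.64. Evenness of CDP was 0.15 with a pseudocount of 0.5 and 0.17 over a lag of 2 bins; as the SD of residuals it was 0.0994 in CDP and 0.163 in Duplike, a difference of 0.0637. At a limit of 0.2, 825 bins were lower in CDP, and 648 were higher and 969 lower in Duplike. At 0.5, 40 were higher and 204 lower in CDP, and 111 and 290 in Duplike. Whole chromosomes off the fit numbered 19 in CDP at a limit of 0.2, and 5 in CDP and 22 in Duplike at 0.3, limits chosen after seeing the data. The mean fraction of CDP stayed between those of naive WBC and the culture in all settings other than the one with ceiling bins kept.

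No paired analysis was possible because each class is 1 sample. Leaving out a sample was not possible for the same reason. Read depth is unknown, and differences between CDP and Duplike hold for these 2 samples only.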
